A study of Mus musculus with 11 samples.

Results

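The additivity of adrenomedullin 2 (ADM2) and interleukin-25 (IL-25) was measured gene by gene in all 11 of the 11 RNA-seq libraries of a design in which each agent was given with and without the other. The cells were large-intestinal group 2 innate lymphoid cells (ILC2s) of wild-type C57BL/6 mice, kept in culture for 3 h after sorting. The IL-25 plus ADM2 group had 2 libraries, and the IL-25, ADM2 and vehicle groups had 3 each. IL-25 was given at 100 ng/ml and ADM2 at 0.4 µg/ml. Every culture, vehicle included, also received IL-2 (100 ng/ml) together with IL-7 (100 ng/ml), so that all effects are changes in cells already receiving cytokines. The treatment label of the combined group reads "IL125 and ADM2", whereas its sample titles read IL25_ADM2, and the titles were followed. Whether replicates are separate mice or cultures of shared cells is not stated in the labels, so the p-values reflect the spread among these libraries alone, which may be technical. The measure was the interaction, that is the log2 change by ADM2 with IL-25 minus the log2 change by ADM2 without IL-25. It was computed for the 15028 genes that passed the filter on low counts, of which 9864 were well expressed (a mean of at least 2 on the log2 CPM scale, CPM being the read count of a gene scaled to the depth of its library). An interaction of 0 means that log2 effects add, so that fold changes multiply; a positive value means a level with both agents above that product, and a negative value a level below it.

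IL-25 is released by epithelial tuft cells and acts on ILC2s through a receptor that contains IL-17RB, which leads to NF-kB and MAP kinase signalling and to transcription of type 2 cytokine genes. ADM2 belongs to the calcitonin gene-related peptide (CGRP) family and acts through CALCRL with a RAMP partner, a Gs-coupled receptor that raises cAMP and activates CREB. In the intestine ILC2s are known for IL-5 and IL-13, which act on eosinophils, goblet cells and tuft cells, and for amphiregulin, an epidermal growth factor family member linked to epithelial repair. Total counts ran from 25809256 to 35445351 per library. All 12 ILC2 marker genes were detected, among them Gata3 at 710 to 1372 CPM and Il1rl1 at 427 to 1090 CPM. Of the T cell markers, Cd3e was at 0.494 to 3.45 CPM and Lat at 19.1 to 52.4 CPM. Summed markers of mast cells and basophils ran from 410 to 937 CPM and of B and plasma cells from 269 to 501 CPM. The sums were 176 to 488 CPM for stroma and endothelium and 68.5 to 191 CPM for epithelium. They were 35.4 to 62.8 CPM for NK cells and ILC1s, 6.19 to 16.2 CPM for myeloid cells and 0.690 to 2.73 CPM for glia and neurons. In bulk RNA, fewer cells of a type and less RNA per cell cannot be told apart.

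For most well-expressed genes the combined level lay close to the product of the single-agent changes. The estimate of the interaction was within 1.5-fold of 0 for 9312 of 9864 genes (94.4%), with a median of −0.039 (log2), against −0.024 over all tested genes. Many of these genes had little effect to combine. In a fit with no interaction term, 4170 were called for neither agent (93.0% within 1.5-fold) and 1737 for both (95.6%). The share was 68.0% of 175 genes lowered and 84.7% of 177 raised 2-fold by IL-25. It was 92.9% of 126 genes lowered and 86.6% of 232 raised 2-fold by ADM2. The 95% interval of the estimate, a stricter criterion, lay within 1.5-fold for 4063 of the well-expressed genes (41.2%), within 2-fold for 8136 (82.5%) and within 0.32 on the log2 scale for 146 (1.48%). Most of the remaining genes were therefore not shown to be additive to that width, nor shown to depart from it. The 1.5-fold share fell to 25.95% without IL-25 plus ADM2 replicate 3, which leaves a single library with both agents.

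Few genes departed from additivity past the threshold. Of 15028 genes tested, 5 (0.0333%) had an interaction at an adjusted p below 0.05 (edgeR quasi-likelihood test, Benjamini-Hochberg adjustment). Of these 2 had positive values (0.0133%), Ighv1-19 among them, and 3 had negative values (0.02%), namely Tagap, Dnah12 and Igkv17-127. All 5 passed the mean level set for well-expressed genes (0.0507% of such genes). The antigen receptor segments Ighv1-19 and Igkv17-127 did so with a whole group at or near 0 reads. Relative to the sign of the joint effect of both agents, 2 well-expressed genes were more than additive (0.0203%), Dnah12 among them, and 3 were less than additive (0.0304%). At an unadjusted p below 0.05 there were 1028 genes (6.84%), 444 of them positive (2.95%) and 584 negative (3.89%), and among well-expressed genes 787 (7.98%), of which 206 were more and 581 less than additive. DESeq2 called 45 genes and limma voom 1. The edgeR count was 0 without IL-25 replicate 2 or without IL-25 replicate 3, 1 without each of the IL-25 plus ADM2 or ADM2 libraries in turn, and 2 without vehicle replicate 1 or 3. By comparison, the effect of ADM2 was called for 3417 well-expressed genes (34.6%) and that of IL-25 for 4014 (40.7%) in a fit with no interaction term.

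**Figure D1:**
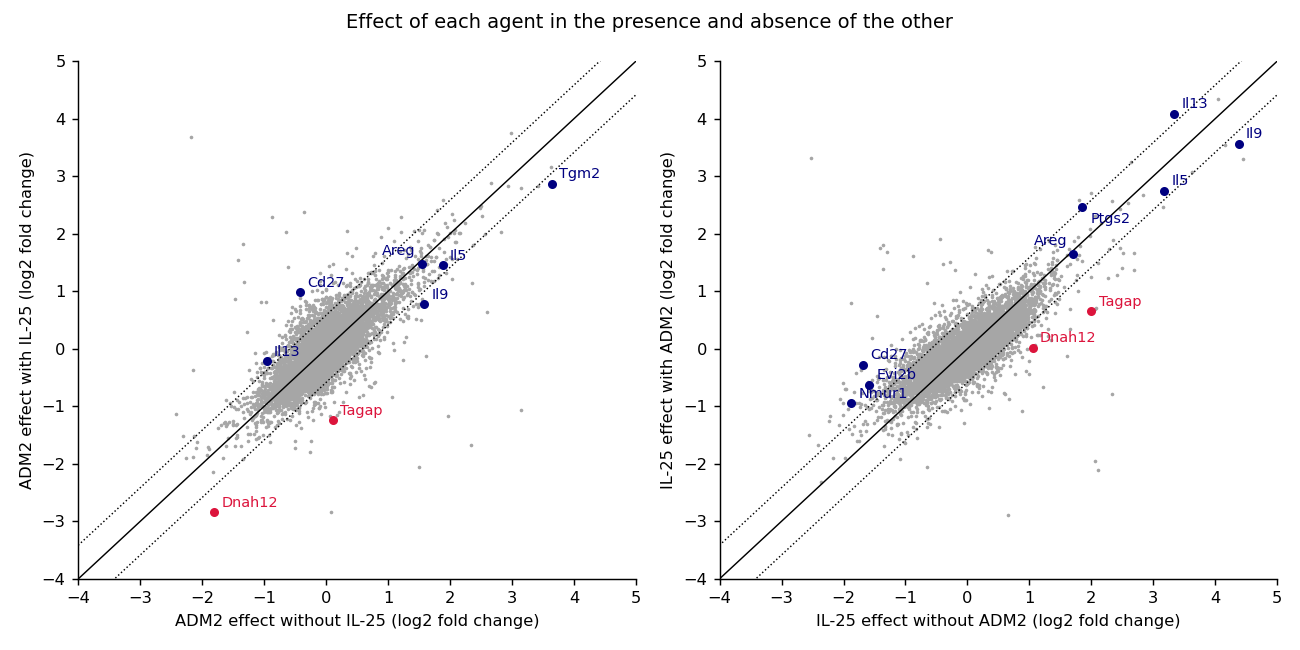
Log2 fold change by ADM2 with IL-25 (left, vertical axis) against that without IL-25 (horizontal axis), and the same for IL-25 with and without ADM2 (right), for 9864 well-expressed genes (grey points, with genes beyond the axes not drawn). The solid line marks equal effects and the dotted lines a 1.5-fold departure; red marks named genes with a called interaction and blue other named genes, and Tagap and Dnah12 lie well below the line in both panels.

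The effect of ADM2 with IL-25, which uses 5 libraries, and that without IL-25, which uses the other 6, had a Pearson correlation of 0.633 and a Spearman correlation of 0.718 over 9864 genes. The IL-25 effect with and without ADM2 gave 0.624 and 0.776. These are descriptions across genes, which are not independent replicates.

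Of 4 classes of strongly changed genes, those that IL-25 lowered had interactions farthest to one side. They were taken from the fit with no interaction term (called, and at least 2-fold), whose estimates are nearly uncorrelated with the interaction, and the separation of lowered from raised genes was chosen after seeing the data. Among 175 genes lowered 2-fold by IL-25, the median interaction was 0.31, and 139 (79.4%) had a positive value, against 43.6% of all well-expressed genes, of which 56.4% were negative. The median IL-25 effect in this class was 2.00-fold lower with ADM2 and 2.50-fold lower without it. In this class 48 genes (27.4%) had an unadjusted p below 0.05, all of them positive, while 1, Ighv1-19, was called. Leaving out each library in turn gave medians between 0.28 and 0.38. Summed T cell markers were also lower with IL-25. All 8 listed markers were detected, and together they reached 46.0 CPM in both libraries with IL-25 plus ADM2, 28.9 to 32.1 CPM with IL-25, 49.2 to 52.2 CPM with ADM2 and 53.2 to 66.2 CPM with vehicle. Most of the sum was Lat, a T cell receptor adaptor gene, at 32.2 and 30.7 CPM with IL-25 plus ADM2, 19.1 to 23.7 CPM with IL-25, 36.4 to 39.3 CPM with ADM2 and 39.6 to 52.4 CPM with vehicle; DESeq2 called its interaction. The part of these markers in the result was not tested.

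Genes that IL-25 raised and genes that ADM2 changed had medians nearer to 0. For 177 genes raised 2-fold by IL-25 the median interaction was −0.063, and the median IL-25 effect was 2.31-fold with ADM2 and 2.50-fold without it. This median turned positive without vehicle replicate 1 (0.014) or vehicle replicate 3 (0.026). At a 1.5-fold threshold it was −0.13 over 733 genes raised by IL-25, of which 68.6% were negative, and the median of 798 genes lowered by IL-25 was 0.21. For 232 genes raised 2-fold by ADM2 the median was −0.048, with a median ADM2 effect of 2.46-fold with IL-25 and 2.55-fold without it. For 126 genes lowered 2-fold by ADM2 the median was 0.057, and the ADM2 effect was 2.35-fold lower with IL-25 and 2.28-fold lower without it. Counted along the direction of each effect, the effect was smaller in the presence of the other agent for 245 of 352 genes changed 2-fold by IL-25 (69.6%, median −0.19) and for 199 of 358 genes changed 2-fold by ADM2 (55.6%, median −0.049).

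**Figure D2:**
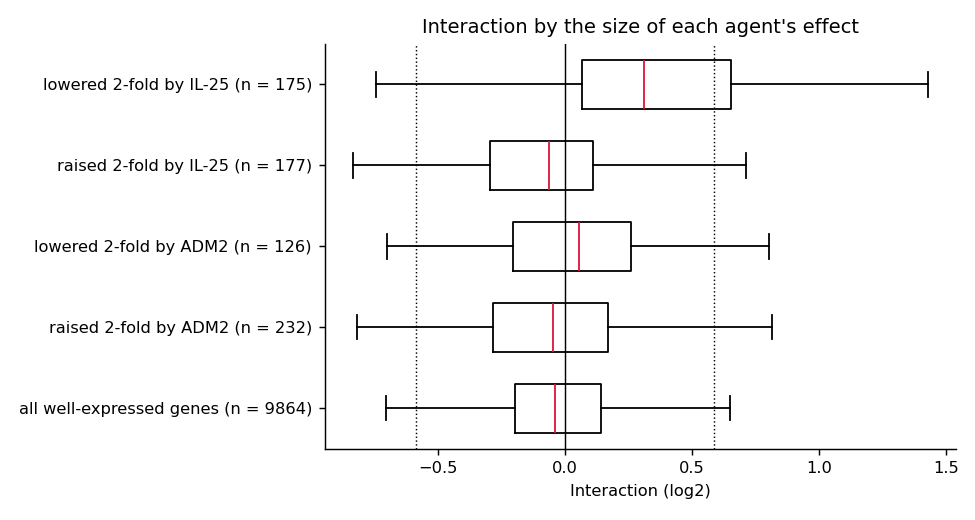
Interaction (log2, horizontal axis) for well-expressed genes by class; boxes run between the quartiles, red lines are medians, and whiskers reach to the farthest gene within 1.5 box lengths. Genes lowered 2-fold by IL-25 (n = 175) have a median of 0.31, whereas the other classes lie between −0.063 and 0.057.

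Both agents were called for 1737 well-expressed genes, and 895 of these (51.5%) had an interval within 1.5-fold. Where both agents raised a gene (345 genes) the median interaction was −0.15 and 260 values were negative. Where both lowered it (218 genes) the median was 0.038. Where ADM2 raised and IL-25 lowered a gene (347 genes) the median was 0.12, and where ADM2 lowered and IL-25 raised it (827 genes) −0.11.

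Tagap, which encodes a GTPase-activating protein of activated T cells (Entrez ID 72536, mm10 chromosome 17, 7926000 to 7934897), had the largest negative called value outside the antigen receptor loci. Its levels were 35.5 and 34.0 CPM with IL-25 plus ADM2, 79.3, 81.1 and 87.0 CPM with IL-25, 20.4, 21.2 and 24.9 CPM with ADM2, and 21.0, 23.5 and 17.4 CPM with vehicle. The ADM2 and vehicle libraries overlapped, and the libraries with both agents lay between them and the IL-25 libraries. IL-25 raised Tagap 1.57-fold with ADM2 and 4.0-fold without it (interaction −1.35 ± 0.19 SE, edgeR adjusted p = 0.0293). The interaction of Tagap was called in 10 of 21 alternative settings, and the call was lost without any one of the IL-25 plus ADM2 or ADM2 libraries, IL-25 replicate 2 or 3, or vehicle replicate 1 or 3. Tagap overlaps the predicted gene Gm1604a and has a paralog, Tagap1, so its value is uncertain where reads could be split. Tagap1 was at 44.0 and 44.8 CPM with IL-25 plus ADM2 and 48.6 to 59.0 CPM with IL-25. It was at 26.6 to 32.1 CPM with ADM2 and 38.0 to 41.8 CPM with vehicle. For Tagap1 the interaction was 0.16 ± 0.17 (edgeR adjusted p = 0.909).

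Dnah12, an axonemal dynein heavy chain gene (Entrez ID 110083, chromosome 14, 26691554 to 26892719), showed an IL-25 increase without ADM2 and none past the threshold with it. It was at 13.2 and 14.3 CPM with IL-25 plus ADM2, 109.8, 91.8 and 93.3 CPM with IL-25, 14.2, 13.8 and 12.6 CPM with ADM2, and 48.3, 47.0 and 46.8 CPM with vehicle. The IL-25 plus ADM2 and the ADM2 libraries overlapped, while the IL-25 and the vehicle libraries each stood apart. IL-25 raised Dnah12 2.07-fold without ADM2, against a ratio of 1.01 with it (edgeR adjusted p = 0.956), and ADM2 lowered it 7.15-fold with IL-25 and 3.50-fold without it (interaction −1.03 ± 0.16, edgeR adjusted p = 0.0460). It overlaps the annotated Gm34415, and its call held in 2 of 21 alternative settings.

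Tgm2 and Il13 lay just outside the threshold. Tgm2, which encodes transglutaminase 2, was at 752 and 694 CPM with IL-25 plus ADM2, 95.8, 100.0 and 100.8 CPM with IL-25, 1516, 1621 and 1377 CPM with ADM2, and 126, 116 and 120.4 CPM with vehicle. Every library with both agents was below every ADM2 library and above all others. ADM2 raised it 7.31-fold with IL-25 and 12.5-fold without it (interaction −0.77 ± 0.13, edgeR adjusted p = 0.0565). IL-13 drives goblet cell mucus and eosinophil recruitment. Its gene, Il13 (Entrez ID 16163, chromosome 11, 53631323 to 53634702), was at 2333 and 2578 CPM with IL-25 plus ADM2, 2834, 2644 and 3078 CPM with IL-25, 156, 135 and 143 CPM with ADM2, and 269.8, 302 and 272 CPM with vehicle. All 4 groups stood apart, with the IL-25 libraries highest and the ADM2 libraries lowest. ADM2 lowered Il13 1.95-fold without IL-25 (edgeR adjusted p = 2.42e-06), against 1.16-fold lower with IL-25, which was not called (edgeR adjusted p = 0.166). The interaction of Il13 was 0.75 ± 0.13 (edgeR adjusted p = 0.0881). The interactions of Tgm2 and of Il13 were each called in 3 of 21 alternative settings.

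**Figure D3:**
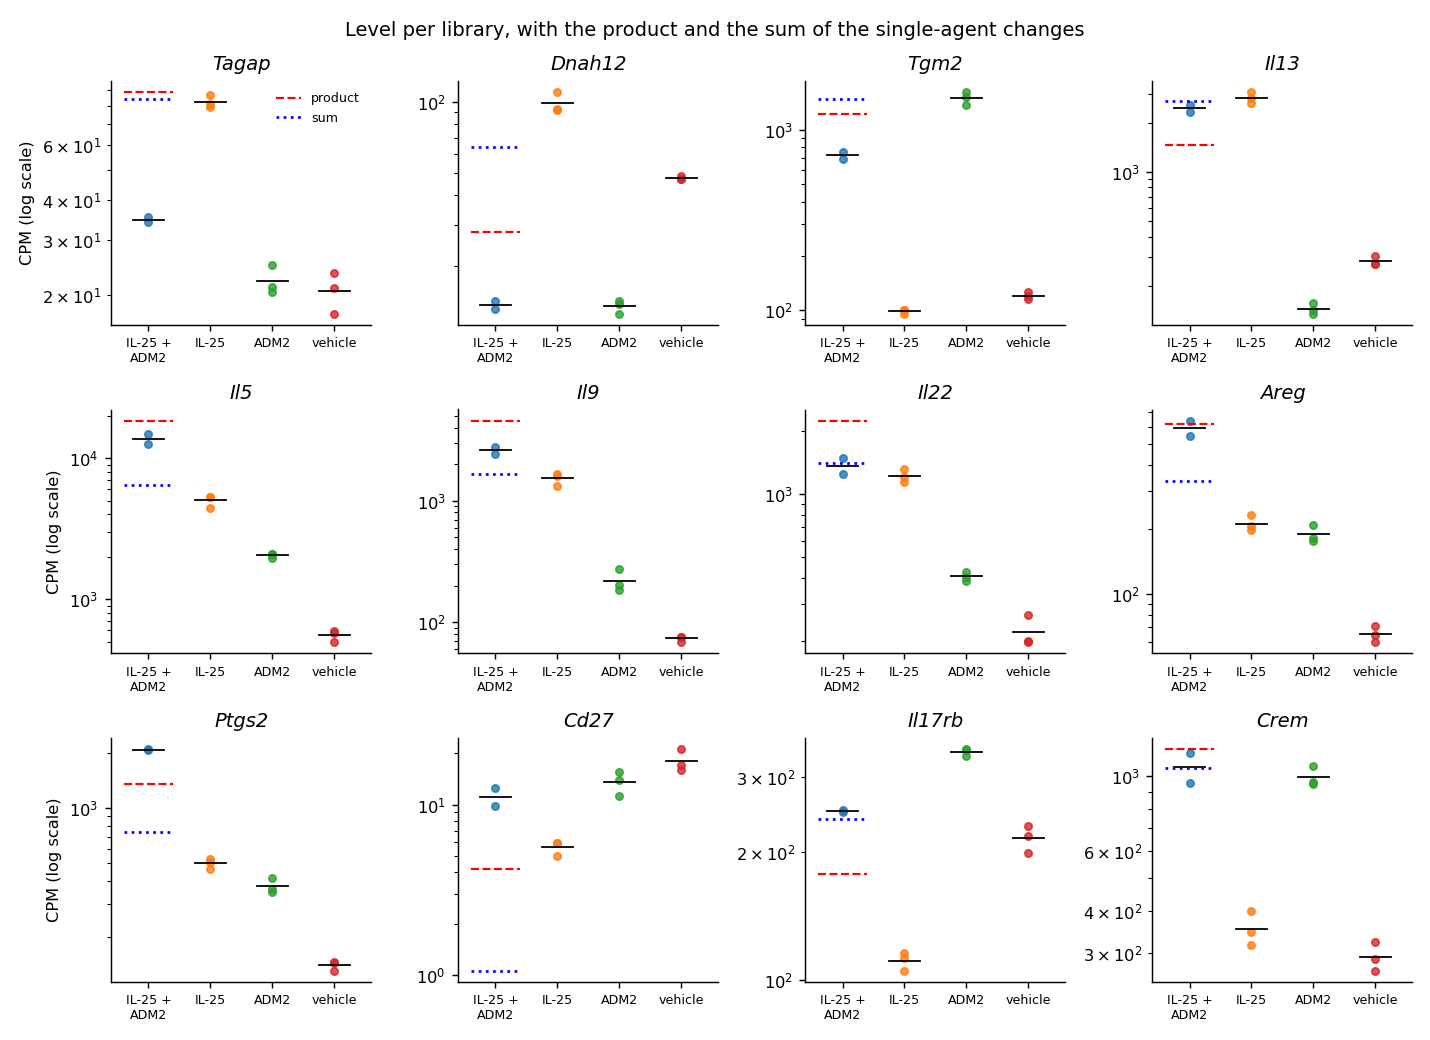
CPM on a log axis for 12 named genes, with a point per library and a bar at the mean of IL-25 plus ADM2 (n = 2), IL-25, ADM2 and vehicle (n = 3 each). Over the combined group the dashed red line marks the product and the dotted blue line the sum of the single-agent changes; Areg sits at its product, Ptgs2 above it, and Tagap below both lines.

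Antigen receptor V segments with libraries at or near 0 were also called. Ighv1-19, an immunoglobulin heavy chain segment (chromosome 12, 114708648 to 114708941), had 84 and 316 reads with IL-25 plus ADM2, 0, 0 and 1 with IL-25, 199, 452 and 365 with ADM2, and 220, 258 and 164 with vehicle (edgeR adjusted p = 0.00900). Igkv17-127, a kappa light chain segment (chromosome 6, 67861159 to 67861659), had 0 and 0 reads with IL-25 plus ADM2, 350, 470 and 491 with IL-25, 205, 329 and 695 with ADM2, and 0, 6 and 109 with vehicle (edgeR adjusted p = 0.0460). The vehicle libraries of Igkv17-127 thus spanned 0 to 109 reads among themselves. B and plasma cell markers, all 6 of them detected, summed to 415.5 and 487 CPM with IL-25 plus ADM2, 339 to 501 CPM with IL-25, 356 to 432.5 CPM with ADM2 and 269 to 384 CPM with vehicle, most of it Jchain. Their part in these values was not tested. With antigen receptor segments left out of the fit, an alternative chosen after seeing the data, 2 genes were called, Tagap among them.

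Of Il5, Il9, Areg and Il13, the combined level exceeded the sum of the single-agent changes for all but Il13. Against the product the order differed. The Il13 mean of 2455 CPM lay below its sum of 2715 CPM but was 1.68 times its product of 1465 CPM, whereas Il5 and Il9 lay below their products. Il5, the eosinophil growth factor gene (chromosome 11, 53720794 to 53725103), was at 12538 and 14859 CPM with IL-25 plus ADM2, 5321, 4436 and 5281 CPM with IL-25, 2103, 2079 and 1947 CPM with ADM2, and 495, 589 and 579 CPM with vehicle. All 4 groups stood apart, and both agents raised Il5 24.7-fold. The mean of 13699 CPM lay between the sum of the single-agent changes, 6501 CPM, and their product, 18477 CPM (interaction −0.43, 95% interval −0.72 to −0.14, edgeR adjusted p = 0.587). Areg, which encodes amphiregulin (chromosome 5, 91139599 to 91148432), was at 545 and 641 CPM with IL-25 plus ADM2, 207, 199 and 232 CPM with IL-25, 209, 177 and 182 CPM with ADM2, and 64.3, 71.1 and 59.8 CPM with vehicle. The single-agent groups overlapped each other, and the combined libraries lay above all others. Their mean of 593 CPM was close to the product of 619 CPM and above the sum of 337 CPM (interaction −0.06, 95% interval −0.40 to 0.28).

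Il9, which encodes a mast cell and ILC2 growth factor (chromosome 13, 56479277 to 56482257), was at 2406 and 2789.8 CPM with IL-25 plus ADM2, 1647, 1319 and 1606 CPM with IL-25, 273, 202 and 185 CPM with ADM2, and 68.5, 76.0 and 75.8 CPM with vehicle. The order of the groups was the same as for Il5, with no overlap. ADM2 raised Il9 1.70-fold with IL-25 and 2.99-fold without it, and the mean of 2598 CPM lay between a sum of 1671 and a product of 4565 CPM (interaction −0.81 ± 0.20, edgeR adjusted p = 0.335). Il22, an epithelial barrier cytokine gene, was raised 1.83-fold by ADM2 without IL-25 (edgeR adjusted p = 8.88e-05), while with IL-25 the ratio was 1.12 (edgeR adjusted p = 0.483). Its libraries read 1244 and 1482 CPM with IL-25 plus ADM2, 1318, 1138 and 1206 CPM with IL-25, 428, 401 and 388 CPM with ADM2, and 199.8, 266 and 198 CPM with vehicle (interaction −0.72 ± 0.17, edgeR adjusted p = 0.335). The libraries with IL-25 plus ADM2 and those with IL-25 overlapped. All 6 listed markers of ILC3s, which also make IL-22, were detected. Together they reached 1277 and 1527 CPM with IL-25 plus ADM2, 1156 to 1332 CPM with IL-25, 401.5 to 443 CPM with ADM2 and 208 to 277 CPM with vehicle, most of it Il22 itself, and their part in this result was not tested.

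Ptgs2, which encodes the prostaglandin-forming enzyme cyclooxygenase 2 (chromosome 1, 150100031 to 150108234), was at 2063 and 2094 CPM with IL-25 plus ADM2, 512, 530.2 and 468 CPM with IL-25, 349, 416 and 362 CPM with ADM2, and 144, 146 and 131 CPM with vehicle. All 4 groups stood apart, and the mean of 2078 CPM was 1.54 times the product (interaction 0.62 ± 0.13, edgeR adjusted p = 0.199). In a group chosen after seeing the data, 13 well-expressed genes were raised at least 2-fold by each agent, among them Il17a, Il17f, Cxcr4, Ptgs2, Il5, Mycn, Il9, Fbxl21, Ttc39c, Cxcl3, Cxcl2 and Areg. The combined level was nearer to the product than to the sum for 11 of them, above the product for 5, between sum and product for 8 and below the sum for 0. Among 70 genes raised at least 1.5-fold by each, 39 (55.7%) were nearer to the product, 37 lay between, 23 above the product and 10 below the sum.

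The promoters of Areg, Ptgs2 and Il13 are shown because Areg stood at the product of the changes, Ptgs2 above it, and Il13 was moved in opposite directions by the agents. The windows are RefSeq sequence of GRCm38.p6, 250 bases before to 50 after the annotated start, read 5′ to 3′ on the strand of the gene. Capitals mark the cAMP response element (CRE) TGACGTCA, its core TGACG or the E-box CACGTG on either strand. The Areg window is chr5:91139349-91139648 on the plus strand, the Ptgs2 window chr1:150099781-150100080 on the plus strand and the Il13 window chr11:53634653-53634952 on the minus strand.
Areg: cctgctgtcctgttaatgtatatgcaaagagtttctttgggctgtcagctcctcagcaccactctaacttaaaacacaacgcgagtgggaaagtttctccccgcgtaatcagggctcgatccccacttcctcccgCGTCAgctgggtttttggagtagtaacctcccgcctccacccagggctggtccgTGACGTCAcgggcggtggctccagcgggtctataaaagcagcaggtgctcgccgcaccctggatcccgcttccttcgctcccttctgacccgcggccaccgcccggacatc
Ptgs2: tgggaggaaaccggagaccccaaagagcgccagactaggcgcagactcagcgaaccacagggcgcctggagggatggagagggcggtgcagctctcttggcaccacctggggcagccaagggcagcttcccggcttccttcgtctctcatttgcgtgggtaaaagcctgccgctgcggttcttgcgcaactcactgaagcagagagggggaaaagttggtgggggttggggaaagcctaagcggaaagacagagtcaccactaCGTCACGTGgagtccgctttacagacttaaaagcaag
Il13: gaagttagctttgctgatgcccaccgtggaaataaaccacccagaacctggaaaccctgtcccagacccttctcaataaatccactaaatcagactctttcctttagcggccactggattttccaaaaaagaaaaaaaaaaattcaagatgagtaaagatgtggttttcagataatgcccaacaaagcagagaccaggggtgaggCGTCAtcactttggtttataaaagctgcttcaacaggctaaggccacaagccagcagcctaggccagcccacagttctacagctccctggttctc
Areg held a whole CRE starting 61 bases before the start and a further core 115 bases before it. Every whole CRE also holds the core. Ptgs2 held a core starting 13 bases after the start that overlaps an E-box starting 16 bases after it, and Il13 a core 45 bases before the start. A window was found for 72 of 99 named genes. Those of Tagap, Dnah12, Il5 and Cd27 held none of these letters, and that of Il9 held a core starting 19 bases after the start. Shares below are of genes, and a gene counts when any of its windows held the letters. A whole CRE was held by 304 of 7843 well-expressed genes with a window (3.88%) and 9 of 165 raised 2-fold by ADM2 (5.45%). It was held by 7 of 231 genes with a positive interaction at an unadjusted p below 0.05 (3.03%) and 12 of 378 with a negative one (3.17%). The core was held by 38.0% of well-expressed genes, 30.7% of those with such a positive and 45.8% of those with such a negative interaction. The E-box was held by 12.5%, 12.6% and 11.4% of these genes, and the kappaB site by 6.46%, 6.06% and 6.35%. These shares are descriptions of letters, and the core was added to the search after seeing the data.

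Several genes with positive values that edgeR did not call had been lowered by IL-25 in the absence of ADM2. Cd27, Evi2b and Nmur1 were called by DESeq2 and by edgeR with no filter on low counts, and Evi2b also without IL-25 replicate 1. Cd27, a co-stimulatory receptor gene of lymphocytes (chromosome 6, 125232620 to 125237136), was at 12.5 and 9.81 CPM with IL-25 plus ADM2, 5.95, 5.99 and 5.00 CPM with IL-25, 15.4, 11.2 and 13.9 CPM with ADM2, and 15.9, 21.2 and 17.1 CPM with vehicle. The IL-25 libraries were below all others, and the IL-25 plus ADM2 and ADM2 libraries overlapped. IL-25 lowered Cd27 3.20-fold without ADM2 (edgeR adjusted p = 1.76e-05), against 1.21-fold with ADM2 (edgeR adjusted p = 0.496; interaction 1.40 ± 0.28, edgeR adjusted p = 0.199). The sum of the T cell markers given above, most of it Lat, was lowest in the same IL-25 libraries. Not every listed marker was lowest there. The IL-25 libraries were likewise the lowest for Evi2b, whose locus overlaps Nf1 and Evi2 (interaction 0.96 ± 0.20), and for Nmur1, the neuromedin U receptor gene of ILC2s (0.92 ± 0.21). Nmur1 was at 26.6 and 31.9 CPM with IL-25 plus ADM2, 22.6, 16.3 and 15.6 CPM with IL-25, 57.9, 62.1 and 49.95 CPM with ADM2, and 66.8, 67.5 and 64.7 CPM with vehicle.

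Il17rb, the IL-25 receptor subunit gene, was raised by ADM2 and lowered by IL-25. It stood at 251 and 248 CPM with IL-25 plus ADM2, 105, 116 and 113 CPM with IL-25, 349, 335 and 347 CPM with ADM2, and 218, 199 and 230.3 CPM with vehicle. The libraries with both agents lay above those of vehicle, and ADM2 raised Il17rb 2.24-fold with IL-25 and 1.59-fold without it. The mean of 249.5 CPM exceeded the product of 177 CPM and was close to the sum of 239 CPM (interaction 0.49 ± 0.13, edgeR adjusted p = 0.470). The interaction was −0.22 ± 0.11 for Il1rl1, the IL-33 receptor gene, and 0.11 ± 0.19 for Gata3, the lineage transcription factor gene.

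Several genes with negative values that edgeR did not call had been raised more by IL-25 without ADM2 than with it. Jak1, Cd83, Slc4a7 and Ccnd2 were each called by DESeq2 and by edgeR with no filter on low counts. Jak1, a cytokine receptor kinase gene, was at 779 and 691 CPM with IL-25 plus ADM2, 1108, 1121 and 1104 CPM with IL-25, 599, 690.4 and 596 CPM with ADM2, and 599.8, 563 and 621 CPM with vehicle. The IL-25 libraries were above all others (interaction −0.68 ± 0.13, edgeR adjusted p = 0.175). Its locus overlaps Raver2. Cd83, an activation marker gene, had 44.2 and 57.4 CPM with IL-25 plus ADM2, 128, 99.6 and 106 CPM with IL-25, 24.4, 19.2 and 21.6 CPM with ADM2, and 25.1, 22.9 and 21.3 CPM with vehicle (interaction −1.04 ± 0.21, edgeR adjusted p = 0.199). The ADM2 and vehicle libraries overlapped. Slc4a7, a bicarbonate transporter gene, had an interaction of −0.78 ± 0.15, and Ccnd2, which encodes cyclin D2, −0.74 ± 0.15 (edgeR adjusted p = 0.193 and 0.199).

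**Figure D4:**
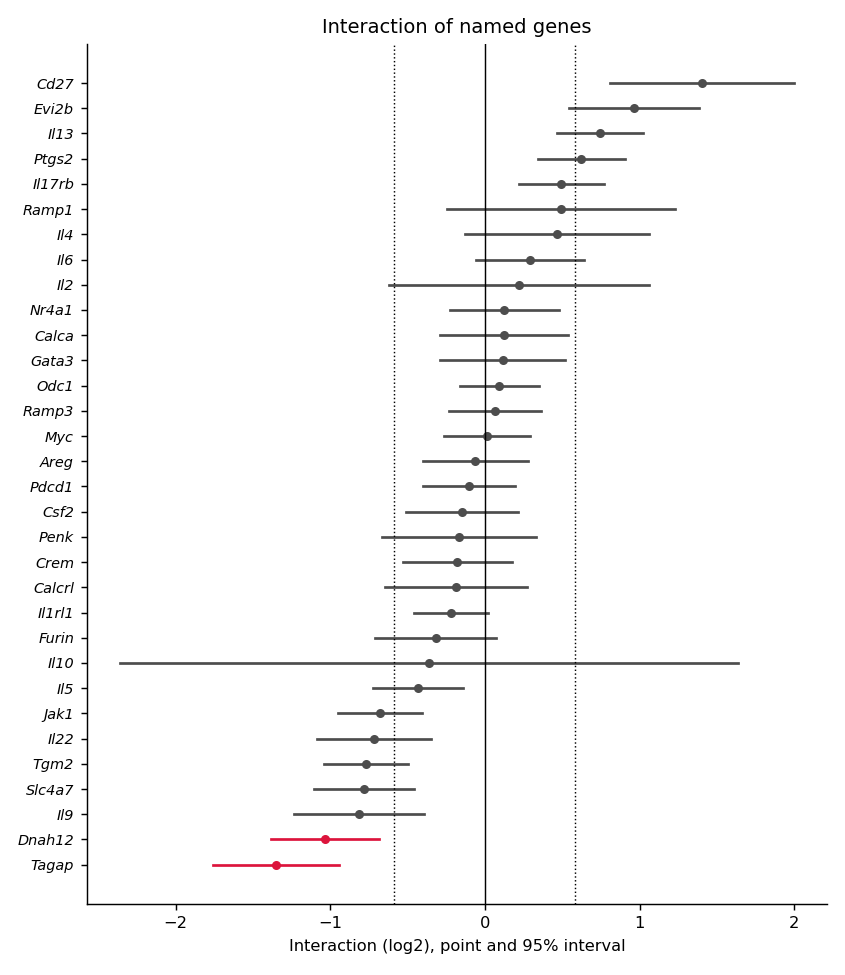
Interaction (log2) of 32 named genes, with the point at the estimate and the bar at its 95% interval; red marks called genes and dotted lines a 1.5-fold departure. The intervals of Areg, Myc, Odc1, Ramp3 and Crem lie within the dotted lines, whereas that of Il10, a gene of low counts, runs from −2.36 to 1.64.

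Among genes called for both agents with an interval within 1.5-fold of 0, those with the largest summed effects were picked. The narrow interval was thus a rule of choice and not a result. With both agents acting the same way these were Areg, Cxcl3 (a neutrophil-attracting chemokine), Dgat2 (a triglyceride-forming enzyme), Mycn and Slc15a3 (a peptide and histidine transporter). Dgat2 changed mostly with IL-25, which raised it 5.76-fold with ADM2 and 6.01-fold without it. ADM2 raised Dgat2 1.17-fold with IL-25, which was not called (edgeR adjusted p = 0.138), and 1.22-fold without it (edgeR adjusted p = 0.0368). Mycn, a MYC family gene, was at 102 and 108 CPM with IL-25 plus ADM2, 36.0, 34.0 and 34.9 CPM with IL-25, 33.5, 38.4 and 41.4 CPM with ADM2, and 11.4, 10.0 and 11.8 CPM with vehicle (interaction −0.18 ± 0.17). The single-agent groups overlapped, and the combined libraries stood above all others. With the agents acting in opposite directions they were Car13 (a carbonic anhydrase), Cnnm2 (a magnesium transport protein), Slc19a1, Stat5a (a transcription factor of cytokine receptors) and Tph1. Tph1, the rate-limiting enzyme gene of serotonin synthesis outside neurons, was at 235 and 238 CPM with IL-25 plus ADM2, 408, 349 and 349.7 CPM with IL-25, 53.3, 56.8 and 56.8 CPM with ADM2, and 87.8, 100.6 and 92.6 CPM with vehicle. Its mean stood at 1.08 times the product. Slc19a1, the reduced folate carrier gene, changed with ADM2 by −1.75 (log2) with IL-25 and by −1.89 without it.

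Several abundant cAMP-responsive and CGRP family genes had a 95% interval that held 0. Those of Tgm2 (−1.04 to −0.50), Ptgs2 (0.34 to 0.91) and Pde3b, a cAMP-degrading phosphodiesterase gene (−0.74 to −0.08), did not. Crem, a cAMP-induced transcription factor gene, was at 957 and 1167 CPM with IL-25 plus ADM2, 397, 316 and 346 CPM with IL-25, 1075, 964 and 947 CPM with ADM2, and 265, 324 and 287 CPM with vehicle. The libraries with both agents overlapped those with ADM2, and the interaction was −0.18 ± 0.16. It was 0.09 ± 0.12 for Odc1 (ornithine decarboxylase), −0.10 ± 0.14 for Pdcd1 (PD-1), 0.12 ± 0.16 for Nr4a1 (an orphan nuclear receptor) and 0.06 ± 0.14 for Ramp3, a receptor partner of CALCRL. Calcrl, the receptor of ADM2, was at 28.9 and 28.2 CPM with IL-25 plus ADM2, 52.2, 42.0 and 37.7 CPM with IL-25, 26.3, 32.2 and 36.3 CPM with ADM2, and 39.1, 46.1 and 42.8 CPM with vehicle (interaction −0.19 ± 0.21). Every library with both agents was below every IL-25 library. At 5.48 to 13.0 CPM, Ramp1 had an interval from −0.25 to 1.23, which does not exclude a 2-fold departure.

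In 16 gene lists 0 of 350 tested members were called for the interaction by edgeR, against 0.0333% of all tested genes, and the lists were read by counts and medians. DESeq2 called 45 of 15028 tested genes, of which 11 were members (Il13, Il9, Il22, Ptgs2, Tgm2, Cd83, Cd27, Nmur1, Il17rb, Ccnd2 and Hspa8). With no filter on low counts, edgeR called 47 of 19267 genes, of which 7 were members (Il13, Il9, Tgm2, Cd83, Cd27, Nmur1 and Ccnd2). Of 29 tested type 2 cytokines and growth factors, 2 had a positive (Il13 and Csf1) and 6 a negative value at an unadjusted p below 0.05 (Il17f, Il24, Il22, Il5, Il9 and Hamp), against 6.84% of all tested genes in either direction, and the median was −0.0013. The median ADM2 effect of the list was 0.54 (log2) with IL-25 and 0.87 without it. Of 29 cAMP and CREB targets 1 was positive (Ptgs2) and 2 were negative (Tgm2 and Pde3b), with a median of −0.047, and the median ADM2 effect was 1.03 both with and without IL-25. Of 30 NF-kB targets 0 were positive and 3 negative (Tnfaip3, Cd83 and Icam1), and the median IL-25 effect was 0.92 with ADM2 and 0.95 without it. Of 30 MYC and ribosome biogenesis genes, 4 were positive (Tfap4, Polr1b, Ppan and Dkc1) and 0 negative; their median ADM2 effect was −0.65 with IL-25 and −0.75 without it. Intervals within 1.5-fold were found for 17 of 28 well-expressed cAMP genes, 17 of 28 NF-kB genes and 21 of 30 MYC genes, against 41.2% of all well-expressed genes and 27% of all tested genes, low-count genes included. In well-expressed cholesterol synthesis genes it was 3 of 23, in interferon-stimulated genes 4 of 20 and in co-stimulatory and inhibitory receptors 5 of 19. It was 2 of 6 in the CGRP family, 9 of 26 in type 2 cytokines and growth factors and 7 of 18 in the cell cycle. Migration genes had 7 of 17, ILC2 identity 11 of 24, immediate early 12 of 24 and unfolded protein and stress response 14 of 24. Glycolysis and hypoxia had 16 of 24, STAT5 feedback 12 of 18 and heat shock 10 of 15.

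The list medians farthest from 0 were those of cholesterol synthesis (−0.23) and interferon-stimulated genes (−0.20), against −0.024 over all tested genes. Positive values made up 47.2% of all tested genes. Of 24 cholesterol synthesis genes 18 had a negative value, and 7 had an unadjusted p below 0.05, all negative, among them Idi1, Hmgcs1, Sqle, Srebf2, Insig1 and Sc5d. Idi1, which encodes isopentenyl-diphosphate isomerase, was at 56.5 and 58.4 CPM with IL-25 plus ADM2, 76.8, 81.2 and 79.9 CPM with IL-25, 35.3, 38.2 and 35.1 CPM with ADM2, and 29.9, 36.5 and 33.6 CPM with vehicle. The ADM2 and vehicle libraries overlapped, and the libraries with both agents lay between them and the IL-25 libraries, which were highest. IL-25 raised Idi1 1.59-fold with ADM2 and 2.38-fold without it (interaction −0.58 ± 0.15, edgeR adjusted p = 0.470). Of 26 interferon-stimulated genes 20 had a negative value, and 0 had an unadjusted p below 0.05 in either direction.

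The other lists had medians between −0.16 and 0.12. Of all tested genes, 2.95% were positive and 3.89% negative at an unadjusted p below 0.05, and a count of 1 in 24 is near those shares. Among genes of the unfolded protein and integrated stress responses 4 of 24 were negative at an unadjusted p below 0.05 (Canx, Hspa5, Asns and Mthfd2) and 0 positive, and in glycolysis and hypoxia likewise 4 of 24 (Slc16a3, Hif1a, Ero1a and Pgk1). Among heat shock and dissociation stress genes 3 of 15 were negative (Hspa4, Hsp90aa1 and Hspa8), among immediate early genes 1 of 24 (Junb) and in the cell cycle 1 of 24 (Mcm4), with 0 positive in each. ILC2 identity genes had 3 positive (Nmur1, Il17rb and Il2ra) and 3 negative of 25 (Il2rb, Gfi1 and Il4ra). STAT5 and cytokine feedback genes had 3 positive (Bcl2, Il2ra and Pim2) and 2 negative of 18 (Stat5b and Ccnd2), and migration and residency genes 2 of each of 21 (S1pr4 and Itgb7, and Cd69 and Itgb1). Co-stimulatory and inhibitory receptors had 1 positive of 20 (Cd27), and the 8 tested CGRP family genes had 0 in either direction.

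**Figure D5:**
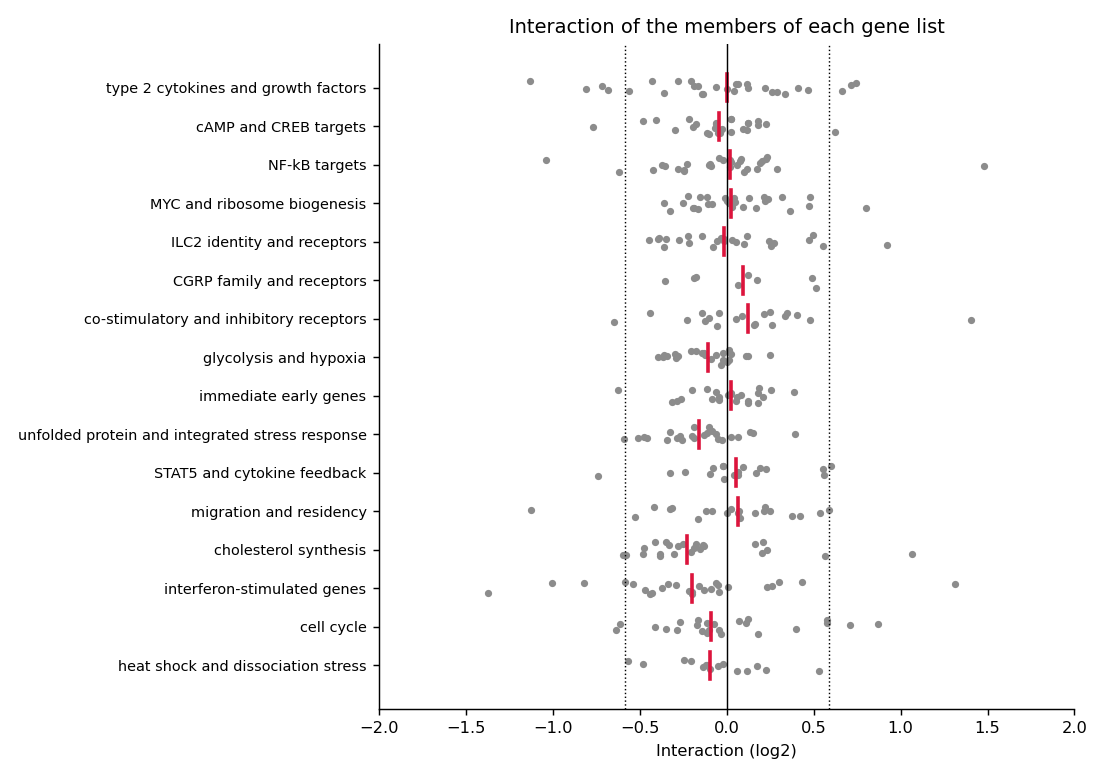
Interaction (log2) of each tested member of 16 gene lists, a grey point per gene and a red bar at the list median; dotted lines mark a 1.5-fold departure. Ppargc1a, a gene of very few reads, lies beyond the axis. It had 0 and 0 reads with IL-25 plus ADM2, 22, 0 and 0 with IL-25, 2, 8 and 14 with ADM2, and 8, 0 and 6 with vehicle. List medians run from −0.23 (cholesterol synthesis) to 0.12 (co-stimulatory and inhibitory receptors).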

How the data were processed

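The authors deposited a table of unnormalised read counts, with 27179 Entrez Gene IDs in rows and 11 libraries in columns; featureCounts, limma and the mm10 build are named without versions, per the submitters' processing notes. Aligner, annotation release and use of strand were not given in the sources used here, and values of overlapping genes and near-identical copies are therefore uncertain. Symbols came from a RefSeq table of GRCm38.p6 (25275 IDs matched, 1904 unmatched and kept). Replicate 1 of the combined group was not analysed here. A mean per group was fitted to all 11 libraries with edgeR 4.0.16 (R 4.3.3, quasi-likelihood, TMM factors, filter at a minimum count of 10), which left 15028 genes, with calls made where the p adjusted by the Benjamini-Hochberg method was below 0.05. The SE is the log2 estimate divided by the root of F, and is approximate. Genes were sorted into classes by an edgeR fit of both agents with no interaction term. CPM use TMM factors. The product is ADM2 × IL-25 / vehicle, and the sum ADM2 + IL-25 − vehicle, in mean CPM. Alternatives were DESeq2 1.42.0, limma 3.58.1 voom, other scalings and filters, a replicate block and leaving out libraries.

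Named genes were the called genes (or, with fewer than 5 in a direction, the 5 smallest p) outside predicted genes and antigen receptor segments, 25 genes chosen whatever their result, the 5 strongest responders with an interval within 1.5-fold for agents acting the same way and for agents acting in opposite ways, and up to 4 members per list with the smallest p. The members, the lists and the tests were chosen with earlier results of these data known. A called gene and some marker and list genes are not reported here.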

Additional observations from a re-analysis of the deposited data

Results flagged for a closer look

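The difference between the ADM2 effect with IL-25 and the ADM2 effect without it passed the edgeR test for 5 genes, which is what brings them here. Among them were Ighv1-19 (edgeR adjusted p = 0.009, 84 and 316 reads with IL-25 plus ADM2 against at most 1 with IL-25), Tagap (edgeR adjusted p = 0.0293, interaction −1.35), Dnah12 (edgeR adjusted p = 0.046, interaction −1.03) and Igkv17-127 (edgeR adjusted p = 0.046, 0 and 0 reads with IL-25 plus ADM2 against 350 to 491 with IL-25). Of 21 alternative settings, 20 of which tested the V segments, Ighv1-19 was called in 15, Tagap in 10, Igkv17-127 in 8 and Dnah12 in 2. Groups of 2 or 3 libraries were too small for a search for single deviating libraries.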

How the results depend on the processing

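The number of called interactions, 5 (2 positive, 3 negative), moved with most choices. It was 45 (20 and 25) with DESeq2, 47 (20 and 27) with no filter on low counts, 3 (2 and 1) at a minimum count of 30, 1 (0 and 1) with limma voom, 2 (1 and 1) with voom weights for sample quality, 2 (1 and 1) with antigen receptor segments left out and 0 (0 and 0) with replicates 2 and 3 of each group alone, where 1000 genes had an unadjusted p below 0.05. Leaving out each library in turn gave 0 to 6 calls (0 to 3 positive, 0 to 3 negative); with 1 library left in the combined group, that library is assumed to vary like the others. All 5 genes were among the calls of DESeq2 and of the fit with no filter. The share of well-expressed genes called more and less than additive, 0.0203% and 0.0304%, became 0.1014% and 0.2636% with DESeq2, 0.1115% and 0.223% with no filter, and 2.088% and 5.89% at an unadjusted p, and lay between 0% and 0.0406% and between 0% and 0.0405% with each library left out. The share with an interval within 1.5-fold, 41.2%, was 1.48% for the narrower width (0.32 on the log2 scale) and 82.48% at 2-fold, and 25.95% to 44.74% with each library left out. Medians along the direction of the effect ran from −0.0867 to −0.0207 for ADM2 and from −0.208 to −0.169 for IL-25 with each library left out, and the IL-25 median was −0.234 with upper-quartile factors. For values with no test, the spread was the jackknife SD over 11 libraries, chosen after seeing the data. The cause of these moves was not tested.

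The replicate block (the number in the titles added as a factor) gave 2 calls (1 positive, 1 negative), Ighv1-19 and Igkv17-127, and turned Cnnm2 to −0.0424 and Myc to −0.00827. Deviations of 15 same-numbered pairs of libraries correlated at −0.254 to 0.141, against −0.191 to 0.254 for 30 other pairs. Of 11 libraries, 1 correlated best with its own number. The deviations of the 2 combined libraries mirror each other by construction. This check therefore cannot exclude that the numbers mark pairs.

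For 99 named genes under 21 settings there were 2073 values; 1928 kept their sign and their side of the threshold, 59 lost a call, 27 gained a call and 59 changed sign, none of the sign changes in a called gene. Signs turned with upper-quartile factors for Cxcl3 (0.0159), Slc15a3 (0.0341) and Stat5a (0.0452). Stat5a was also positive with median-ratio factors (0.00539), DESeq2 (0.00543) and limma voom (0.000658). With sample quality weights Cnnm2 was −0.0247 and Myc −0.0274. With replicates 2 and 3 alone Cnnm2 was −0.247, Crem 0.0233, Gata3 −0.106, Myc −0.102 and Nr4a1 −0.103. With each library left out, signs turned within these ranges: Areg −0.183 to 0.0584, Calca −0.0223 to 0.254, Car13 −0.135 to 0.193, Cnnm2 −0.172 to 0.160, Crcp −0.324 to 0.0415, Csf2 −0.359 to 0.0411, Cxcl3 −0.168 to 0.145, Dgat2 −0.142 to 0.0343, Gata3 −0.0588 to 0.265, Il10 −0.995 to 0.201, Il2 −0.0259 to 0.577, Myc −0.0742 to 0.0852, Nr4a1 −0.0176 to 0.247, Pdcd1 −0.186 to 0.0301, Penk −0.448 to 0.0680, Ramp3 −0.0791 to 0.196, Slc15a3 −0.0973 to 0.107 and Stat5a −0.183 to 0.0883.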

Other observations

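Of 18 STAT5 and cytokine feedback genes, which include targets of the IL-2 that all cultures received, 10 had a positive and 8 a negative interaction. Among them edgeR called 0, against 0.0333% of all tested genes. DESeq2 called 1 of them, Ccnd2, against 45 of all 15028 tested genes. At an unadjusted p below 0.05 there were 3 positive genes (Il2ra, Pim2 and Bcl2, against 2.95% of all tested genes) and 2 negative ones (Ccnd2 at −0.74 and Stat5b at −0.32, against 3.89%). The IL-2 receptor beta chain gene Il2rb was also negative (−0.36 ± 0.11 SE, edgeR adjusted p = 0.581). Il2ra, the alpha chain of the IL-2 receptor, was at 3965 and 3469 CPM with IL-25 plus ADM2, 3537, 5639 and 4921 CPM with IL-25, 953, 945 and 1165 CPM with ADM2, and 1913, 1994 and 1765 CPM with vehicle (interaction 0.55 ± 0.20 SE, edgeR adjusted p = 0.639). The IL-25 plus ADM2 and IL-25 libraries overlapped, and the ADM2 libraries lay below those of vehicle. Pim2, a survival kinase gene induced by STAT5, was at 574 and 549.7 CPM with IL-25 plus ADM2, 640.2, 836 and 823 CPM with IL-25, 185, 156 and 167 CPM with ADM2, and 321, 363 and 335 CPM with vehicle (interaction 0.56 ± 0.16 SE, edgeR adjusted p = 0.577). Its ADM2 effect was −0.45 (log2) with IL-25 and −1.01 without it. Bcl2, an inhibitor of apoptosis, was at 62.0 and 54.1 CPM with IL-25 plus ADM2, 47.0, 55.2 and 46.1 CPM with IL-25, 89.3, 108 and 99.0 CPM with ADM2, and 135, 125 and 121 CPM with vehicle (interaction 0.60 ± 0.16 SE, edgeR adjusted p = 0.484). IL-25 plus ADM2 and IL-25 libraries of Bcl2 overlapped, and all of them lay below the other libraries.

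Chaperone and folate enzyme genes included some with negative values that edgeR did not call at its first settings, of which DESeq2 called Hspa8. Hspa8, a constitutive HSP70 chaperone gene whose locus holds small nucleolar RNA genes, was at 2554 and 2779.8 CPM with IL-25 plus ADM2, 3879, 3067 and 3414 CPM with IL-25, 1966, 2042 and 1825 CPM with ADM2, and 1604, 1740.0 and 1744 CPM with vehicle (interaction −0.57 ± 0.13 SE, edgeR adjusted p = 0.282). The IL-25 libraries were the highest. IL-25 raised Hspa8 by 0.46 (log2) with ADM2 and by 1.03 without it. Mthfd2, a mitochondrial folate enzyme gene, was at 129.7 and 139 CPM with IL-25 plus ADM2, 197, 189 and 194 CPM with IL-25, 85.3, 77.6 and 77.8 CPM with ADM2, and 79.1, 87.8 and 75.3 CPM with vehicle (interaction −0.51 ± 0.14 SE, edgeR adjusted p = 0.481). The ADM2 and vehicle libraries of Mthfd2 overlapped, and the IL-25 libraries stood above all others. In the MYC list Tfap4, a MYC-induced transcription factor gene, was at 13.0 and 9.98 CPM with IL-25 plus ADM2, 28.5, 29.3 and 41.0 CPM with IL-25, 5.97, 6.80 and 4.02 CPM with ADM2, and 28.6, 29.3 and 25.7 CPM with vehicle (interaction 0.80 ± 0.29 SE, edgeR adjusted p = 0.639). Its ADM2 effect was −1.52 (log2) with IL-25 and −2.32 without it.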
